A study of Rattus norvegicus with 6 samples.

Results

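The genes of the core machinery that makes microRNAs and lets them silence messenger RNA were examined in cultured rat cardiac fibroblasts in which one microRNA, miR-142-3p, had been targeted. The 10 genes were chosen by name, with earlier results of these data known, out of 30560 genes in the deposited expression table. They were Drosha, Dgcr8, Xpo5, Dicer1, Ago1, Ago2, Ago3, Tnrc6a, Tnrc6b and Tnrc6c. All 10 were found, and all 10 averaged 1 FPKM or more over all 6 libraries, the filter for testing. FPKM are fragment counts divided by gene length and library total, so comparing different genes on this scale depends on the gene lengths used. The cells were neonatal ventricular fibroblasts (NRCFs) of Sprague-Dawley rats 1 to 2 days old, obtained as the fraction that attached first and kept overnight without serum. One group of 3 libraries came from cells transfected with 50 nM of a miR-142-3p antagomiR, a modified antisense oligonucleotide that binds the mature microRNA, and the labels call this group a knockdown. The other group of 3 libraries came from cells given the same dose of a control oligonucleotide, NC. Both groups had the same transfection reagent and starvation, and no group without transfection was analysed here. Whether the 3 libraries of a group stem from separate isolations is not said in the labels, and the p-values therefore cover only the library-to-library spread, which may be technical.

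MicroRNAs are transcribed as long primary transcripts. In the nucleus the Microprocessor, made of the RNase III enzyme DROSHA and its RNA-binding partner DGCR8, cuts out a hairpin, which exportin 5 (Xpo5) carries to the cytoplasm. DICER1 trims the hairpin to a short duplex, and one strand is loaded into an Argonaute protein, which pairs with target mRNAs mainly through the seed, bases 2 to 8 of the microRNA. Argonautes recruit the TNRC6 scaffold proteins, which in turn bring in deadenylating and decapping enzymes.

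The targeted strand and its partner from the same hairpin are shown because they set out what the treatment was directed at. They are RefSeq sequences on build GRCr8, printed 5′ to 3′ with the seed in capitals, from chr10:73055155-73055177 and chr10:73055119-73055139 on the plus strand.
rno-miR-142-3p: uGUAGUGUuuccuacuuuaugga
rno-miR-142-5p: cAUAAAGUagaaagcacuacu
The arms do not share a seed. The polyA-selected libraries do not measure mature microRNAs, and the loss of miR-142-3p itself was therefore not measured.

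Library totals recovered from the FPKM values ran from 19472409 to 24622667 fragments, and 3 fragments on a gene of 1 kb correspond to between 0.122 and 0.154 FPKM, for counting error only. All 12 cardiac fibroblast markers had a mean above 1 FPKM, led by Col1a1, Col1a2 and Col3a1, and the list summed to between 12962 and 13238 FPKM in NC and between 12505 and 12684 FPKM with the antagomiR. Of the 12, 7 rose and 3 fell by limma (adjusted p under 0.05), where 17.5% of all tested genes rose and 9.21% fell. Markers listed for other cell types were also summed. Whether such cells were present, or the fibroblasts themselves held these transcripts, was not tested. The 17 leukocyte markers, led by Lyz2, Tyrobp and Fcer1g, summed to between 146.2 and 755.2 FPKM in NC, the highest sum being that of NC replicate 3, and to between 972.7 and 1085 FPKM with the antagomiR. Of 14 tested 6 rose and none fell, and Cd3e, Cd79a and S100a8 averaged below 1 FPKM. In NC replicate 3 15 of the 17 were higher than in the other NC libraries, as were 41.9% of all tested genes, while the T cell marker Cd3e was listed at 0 in all 6. Smooth muscle and pericyte markers, led by Acta2, Tagln and Mcam, summed to between 5531 and 6276 FPKM in NC and between 3365 and 3691 FPKM with the antagomiR, and all 7 tested of 10 fell, against the 9.21% of all tested genes. Rgs5, Kcnj8 and Abcc9 of this list averaged below 1 FPKM. The 10 cardiomyocyte markers found, led by Tnnt2, Nppa and Actc1, summed to between 423.8 and 469.3 and between 347.4 and 410.7 FPKM, with 3 risen and 1 fallen of 8 tested. Ttn and Ryr2 of this list averaged below 1 FPKM. The 9 endothelial markers found, led by Erg, Tek and Egfl7, summed to between 10.6 and 12.4 and between 8.76 and 11 FPKM, with 1 risen and 1 fallen of 3 tested and Emcn listed at 0. Of these 9 markers 6 averaged below 1 FPKM: Pecam1, Cdh5, Kdr, Tie1, Vwf and Emcn. The part of any such cells in the results that follow was not tested, and in such bulk RNA fewer cells of a type and less RNA per cell cannot be told apart.

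In the antagomiR libraries 3 of the 10 machinery genes rose, Ago1, Drosha and Dgcr8, and none fell. The rises were small: Ago1 had 1.47 times its NC mean, Dgcr8 1.24 times and Drosha 1.21 times. Calls are from limma on log2(FPKM + 1), two-sided, at a Benjamini-Hochberg adjusted p under 0.05 over all 12024 genes tested. By this rule 17.5% of all tested genes rose and 9.21% fell, against 30% and 0 of these 10 genes, and the difference of a 10-gene list from the background was not tested. At an unadjusted p under 0.05 the same count of 3 was higher and 0 were lower, and limma voom on fragment counts recovered from the FPKM also called 3 up and 0 down. The median log2 fold change of the 10 genes, 0.06, equalled the 0.06 of all tested genes. In the same 3 genes the ranges of the groups did not overlap, as for 44.6% of all tested genes, and all antagomiR libraries lay above all NC libraries, as for 29.2%.

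**Figure D1:**
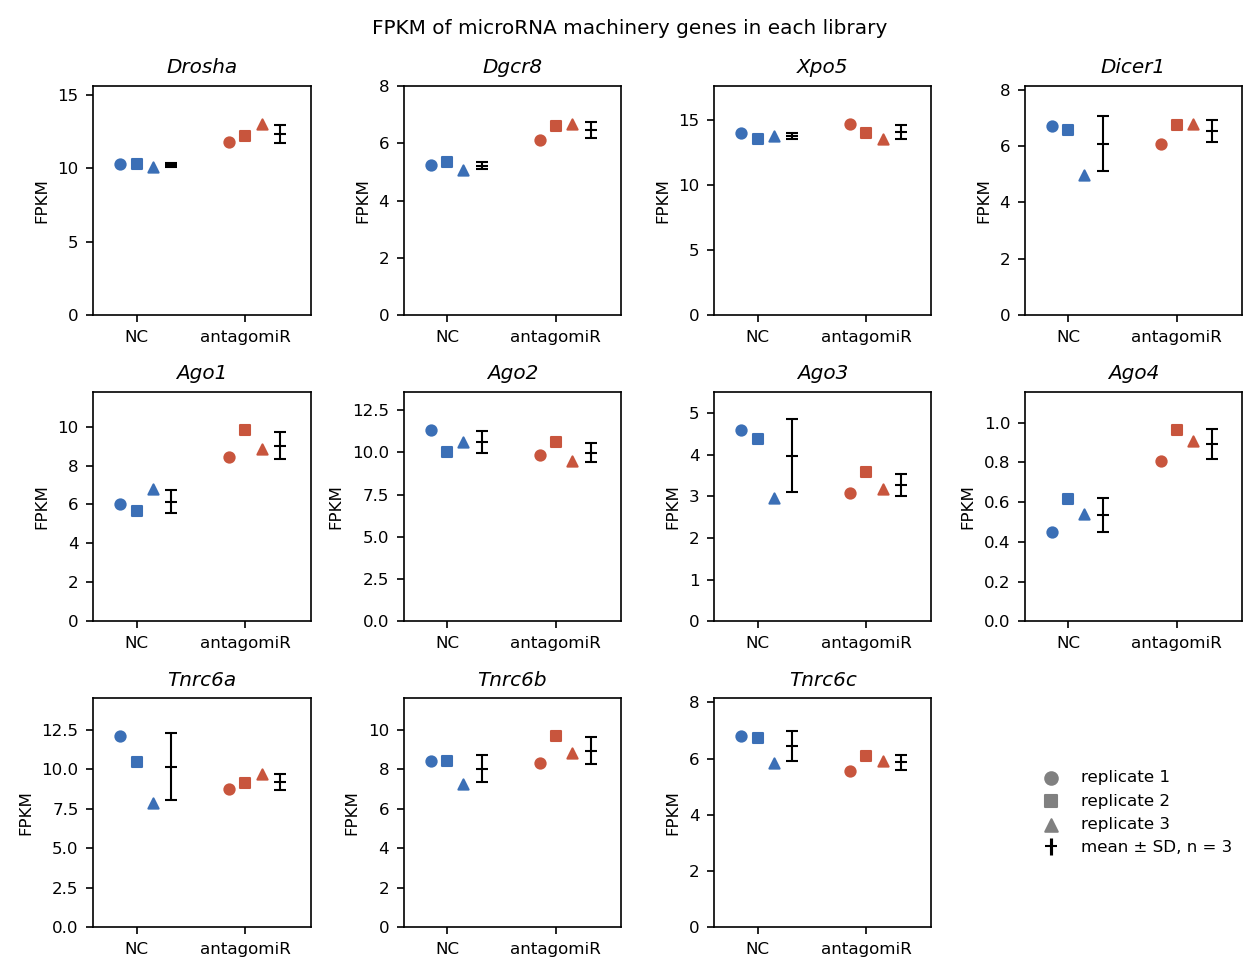
FPKM (vertical axes, from 0) of the 10 machinery genes and Ago4 in each NC (blue) and antagomiR (red) library, with a marker shape for each replicate number and bars for the mean ± SD of 3 libraries. Drosha, Dgcr8, Ago1 and Ago4 show 3 antagomiR libraries above all 3 NC libraries, and NC replicate 3 lies lowest for Dicer1, Ago3, Tnrc6a and Tnrc6b.

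Each of the 10 genes was covered by 187 to 2200 fragments per library. Averaged over the 6 libraries, Xpo5 was highest at 13.9 FPKM, followed by Drosha at 11.3, Ago2 at 10.3, Tnrc6a at 9.69, Tnrc6b at 8.49, Ago1 at 7.58, Dicer1 at 6.31, Tnrc6c at 6.16, Dgcr8 at 5.85 and Ago3 at 3.62 FPKM. Only the first and the last step of this order were clear of the spread: the lowest Xpo5 value, 13.6 FPKM, lay above the highest Drosha value, 13.0 FPKM, and the highest Ago3 value, 4.59 FPKM, below the lowest Dgcr8 value, 5.09 FPKM. All other neighbours in the order overlapped across the libraries.

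Both subunits of the Microprocessor rose. Drosha (ENSRNOG00000013451, chromosome 2 from 61864970 to 61976688 in mRatBN7.2) was at 10.3, 10.3 and 10.1 FPKM in the NC libraries and at 11.8, 12.2 and 13.0 FPKM in the antagomiR libraries, each time in the order of replicates 1, 2 and 3, which all later values follow. The NC libraries were nearly level and all antagomiR libraries lay above them. The log2 fold change was 0.25, standard error 0.06 (limma adjusted p = 0.0197), for means of 10.2 ± 0.0935 and 12.4 ± 0.628 FPKM (SD, n = 3). Dgcr8 (ENSRNOG00000001886, chromosome 11 from 82704729 to 82737242) was at 5.25, 5.35 and 5.09 FPKM in NC and at 6.13, 6.60 and 6.67 FPKM with the antagomiR. Again the groups did not overlap, and the log2 fold change was 0.26, standard error 0.06 (limma adjusted p = 0.0243).

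The 2 transcripts kept nearly the same proportion to each other. There were 0.510, 0.522 and 0.503 FPKM of Dgcr8 per FPKM of Drosha in NC, and 0.518, 0.541 and 0.511 with the antagomiR. The difference of the means, 0.0123, lay within the spread of the libraries (exact two-sided permutation test over 20 arrangements, p = 0.400, and 0.400 adjusted over 3 such ratios and shares). With 3 libraries against 3 the smallest p such a test can give is 0.10, so it cannot show that the proportion was unchanged.

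Neither call was firm. Drosha was no longer called after median-ratio scaling (log2 fold change 0.19, limma adjusted p = 0.0547), after quantile normalization (0.13, adjusted p = 0.147), which moved the median of all genes by -0.11, settings that called 13.1% and 11.8% of all tested genes up, or without NC replicate 2, antagomiR replicate 2 or antagomiR replicate 3 (0.25, 0.26 and 0.21, adjusted p = 0.0641, 0.0665 and 0.0938). Dgcr8 lost its call under the same scalings (0.20 and 0.12, adjusted p = 0.0613 and 0.234) and without NC replicate 1, NC replicate 2, antagomiR replicate 2 or antagomiR replicate 3 (0.26, 0.27, 0.25 and 0.24, adjusted p = 0.0501, 0.0633, 0.0948 and 0.106).

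The promoters of both genes are shown because both were called up, as were 17.5% of all tested genes, and joint control was not tested. They are RefSeq sequences on build GRCr8, covering 250 bases before and 50 after the annotated start, for Drosha chr2:63591728-63592027 and for Dgcr8 chr11:96208788-96209087, both on the plus strand.
Drosha: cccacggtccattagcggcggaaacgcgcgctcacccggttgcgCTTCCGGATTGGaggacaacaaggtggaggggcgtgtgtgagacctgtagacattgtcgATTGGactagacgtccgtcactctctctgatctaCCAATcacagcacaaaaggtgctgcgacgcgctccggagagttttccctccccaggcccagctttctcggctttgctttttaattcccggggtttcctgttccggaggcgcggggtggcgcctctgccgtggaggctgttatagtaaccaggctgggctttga
Dgcr8: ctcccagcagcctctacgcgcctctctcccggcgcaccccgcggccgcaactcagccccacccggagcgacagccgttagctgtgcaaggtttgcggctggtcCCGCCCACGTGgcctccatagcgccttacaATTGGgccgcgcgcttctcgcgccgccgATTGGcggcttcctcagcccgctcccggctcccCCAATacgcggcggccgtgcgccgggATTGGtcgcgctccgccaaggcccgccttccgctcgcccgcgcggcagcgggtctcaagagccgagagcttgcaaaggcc
Capitals mark matches, on either strand, to any of the motifs searched, and in Dgcr8 a GGGCGG match on the opposite strand shares a base with a CACGTG match. The motifs were CCAAT (NF-Y), held by 37.5% of 33469 promoters of this length, GGGCGG (Sp1), held by 33.1%, CCGGAAG (ETS factors), by 8.75%, the NRF1 motif, by 4.25%, CACGTG (E-box), by 6.42%, TGACGTCA (CRE), by 1.83%, TTTCCCGC or TTTGGCGC (E2F), by 1.45%, the interferon response element, by 3.92%, and the NF-kB motif, by 0.362%. Drosha had 3 CCAAT matches and 1 CCGGAAG match, and Dgcr8 had 4 CCAAT matches, 1 GGGCGG match and 1 CACGTG match. The shares above count promoters with at least 1 match, so they give no background for numbers of matches. They also cover all promoters, with a median of 51.7% G and C, against 59.0% for Drosha and 72.3% for Dgcr8. CCAAT matches also stood in the promoters of Dicer1, which was not called, with 2, and Ago1, with 1. None of the 8 promoters found among the machinery genes and Ago4 held the CRE, E2F, interferon response or NF-kB letters in this window. Few promoters hold these letters at all, by the shares above, so nothing particular to these genes follows from their absence. Promoters of Ago2, Tnrc6b and Tnrc6c were not available. A match of letters is a description of the sequence and was not measured as binding.

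Xpo5, the export receptor for hairpin precursors, had the smallest spread over the 6 libraries, an SD of 0.386 FPKM at the highest mean. Xpo5 (ENSRNOG00000019085, chromosome 9 from 14740182 to 14778171) was at 14.0, 13.6 and 13.8 FPKM in NC and at 14.7, 14.0 and 13.6 FPKM with the antagomiR. The groups overlapped, and the log2 fold change of 0.03 had a 95% interval from -0.10 to 0.15 (limma adjusted p = 0.757).

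Dicer1, which encodes the cytoplasmic RNase III enzyme, was not called either. Dicer1 (ENSRNOG00000010711, chromosome 6 from 123631250 to 123693965) was at 6.71, 6.58 and 4.97 FPKM in NC and at 6.08, 6.75 and 6.77 FPKM with the antagomiR. One library, NC replicate 3, was low, and the other 5 lay close together. The log2 fold change was 0.10 with a 95% interval from -0.17 to 0.36 (limma adjusted p = 0.569), and -0.02 without NC replicate 3. The tested genes nearest to Dicer1 in profile over the 6 libraries, by the root-mean-square difference of centred log2(FPKM + 1), were Apc, Trim2 and Dzip1, at 0.0130, 0.0136 and 0.0167, against 0.136 for the spread of Dicer1 itself. Being picked for likeness to Dicer1, all 3 were also lowest in NC replicate 3, as were 25.0% of all tested genes. Apc, for example, was at 12.8, 12.4 and 9.65 FPKM in NC and at 11.9, 12.8 and 13.1 FPKM with the antagomiR. Trim2 lay near the filter, from 1.28 to 1.99 FPKM.

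The Argonaute family did not move as one. Ago1 rose, Ago2 and Ago3 were not called, and Ago4, below the filter, was higher in every antagomiR library than in any NC library. Ago1 (ENSRNOG00000055915, chromosome 5 from 138722111 to 138773546) was at 6.0, 5.65 and 6.78 FPKM in NC and at 8.42, 9.81 and 8.85 FPKM with the antagomiR. The highest NC library, replicate 3, was still below the lowest antagomiR library. The log2 fold change was 0.49, standard error 0.09 (limma adjusted p = 0.00631), for means of 6.14 ± 0.578 and 9.03 ± 0.712 FPKM (SD, n = 3). Ago1 stayed called in all 17 alternative fits, with a log2 fold change of 0.36 after quantile normalization and 0.55 without NC replicate 3. Among all tested genes 8.36% were called up with a log2 fold change at least that large.

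Ago2 encodes the Argonaute that can itself cut a fully matched target, and it had the highest FPKM of the Argonautes in all 6 libraries. That order depends on gene length, recovered as 2702 bp for Ago2 and 7228 bp for Ago1. In fragments Ago1 was higher in every library. Ago1 had 844, 990 and 965 in NC and 1352, 1746 and 1462 with the antagomiR. Ago2 had 593, 655 and 566 in NC and 591, 706 and 585 with the antagomiR. Ago2 (ENSRNOG00000008533, chromosome 7 from 105029120 to 105104974) was at 11.3, 10 and 10.6 FPKM in NC and at 9.85, 10.6 and 9.47 FPKM with the antagomiR. The groups overlapped, and the log2 fold change of -0.08 had a 95% interval from -0.25 to 0.08 (limma adjusted p = 0.424). Its nearest tested profiles were those of Zfp2, Khsrp and a gene without a symbol, ENSRNOG00000005624, at root-mean-square differences of 0.00699, 0.0253 and 0.0262 against 0.0758 for the spread of Ago2 itself. Zfp2, the nearest, lay near the filter, from 0.897 to 1.24 FPKM. Khsrp encodes an RNA-binding protein that assists the processing of some microRNA precursors, and was at 33.5, 30.9 and 31.9 FPKM in NC and at 30.4, 32.5 and 30 FPKM with the antagomiR. These genes were picked for likeness from all tested genes, and a link to Ago2 was not tested.

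Ago3 was the lowest of the 10 genes. Ago3 (ENSRNOG00000034269, chromosome 5 from 138639569 to 138714230) was at 4.59, 4.37 and 2.97 FPKM in NC and at 3.08, 3.58 and 3.17 FPKM with the antagomiR. NC replicate 3 was below all antagomiR libraries, whereas the other 2 NC libraries were above them. The log2 fold change of -0.21 had a 95% interval from -0.53 to 0.12 (limma adjusted p = 0.322). Without NC replicate 3 the fold change was -0.36 and was called down (limma adjusted p = 0.0122), so the outcome for Ago3 rests on that library.

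Ago4, which belonged to the list of Dicer partners and loading factors, is the scarcest Argonaute transcript. It was at 0.448, 0.618 and 0.539 FPKM in NC, from 32, 55 and 39 fragments, and at 0.809, 0.962 and 0.906 FPKM with the antagomiR, from 66, 87 and 76 fragments. Its antagomiR mean was 1.67 times its NC mean. With no filter on low values it was called up, with a log2 fold change of 0.30 (limma adjusted p = 0.0333), a value that the added 1 FPKM makes smaller for so low a gene, where 10.3% of 20134 genes were called up.

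Ago3, Ago1 and Ago4 are neighbours. In the deposited coordinates they follow each other within 186064 bp of chromosome 5, with gaps of 7880 and 9522 bp and no other gene of the table between them. The proportion of Ago1 to Ago3 transcripts differed among the libraries. There were 1.31, 1.29 and 2.28 FPKM of Ago1 per FPKM of Ago3 in NC and 2.74, 2.74 and 2.79 with the antagomiR, a ratio chosen after the values were seen and not tested. NC replicate 3 lay between the other NC libraries and the antagomiR libraries in this ratio, as it did in the summed leukocyte markers. A link between the ratio and these markers was not tested. How many of all tested genes placed this library likewise was not counted.

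The promoters of this pair are shown because these adjacent genes had unlike values. They are on the minus strand of GRCr8, Ago1 at chr5:144041575-144041874 and Ago3 at chr5:143998688-143998987, with capitals as above. For every promoter shown, whether the RefSeq start is that of the deposited gene model on mRatBN7.2 was not checked.
Ago1: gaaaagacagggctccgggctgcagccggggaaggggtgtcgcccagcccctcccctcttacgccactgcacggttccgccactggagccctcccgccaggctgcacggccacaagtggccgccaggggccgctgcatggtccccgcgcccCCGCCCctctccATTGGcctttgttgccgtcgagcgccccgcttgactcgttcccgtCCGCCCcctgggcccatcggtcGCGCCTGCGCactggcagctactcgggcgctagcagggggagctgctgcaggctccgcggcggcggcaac
Ago3: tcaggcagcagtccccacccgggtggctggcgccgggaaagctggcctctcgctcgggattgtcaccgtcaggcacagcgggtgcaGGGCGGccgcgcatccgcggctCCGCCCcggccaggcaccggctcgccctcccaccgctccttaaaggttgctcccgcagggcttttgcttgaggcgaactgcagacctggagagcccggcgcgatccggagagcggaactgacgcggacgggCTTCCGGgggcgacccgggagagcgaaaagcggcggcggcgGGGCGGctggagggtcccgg
Ago1 had 1 CCAAT, 2 GGGCGG and 1 NRF1 match, and Ago3 had 3 GGGCGG matches and 1 CCGGAAG match. Both were 73.3% G and C, against a median of 51.7% over all promoters of the RefSeq table. The other promoters found among the machinery genes and Ago4 were also above that median, from 59.0% for Drosha to 72.3% for Dgcr8.

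Of the shares within the Argonaute pool only that of Ago2 was tested, and its difference did not pass. The others are descriptions, and the size of every share depends on the gene lengths behind the FPKM. Ago2 made up 50.5%, 48.5% and 50.8% of the summed FPKM of Ago1 to Ago4 in NC and 44.5%, 42.5% and 42.3% with the antagomiR. All antagomiR libraries were below all NC libraries. The means were 49.9% ± 1.29 and 43.1% ± 1.19 (SD, n = 3), and the exact two-sided permutation test gave p = 0.10, the smallest that 3 against 3 can give, or 0.300 adjusted over the 3 ratios and shares. The share of Ago1 went from 28.9% ± 3.04 to 38.9% ± 0.813 and that of Ago3 from 18.7% ± 3.85 to 14.1% ± 0.223. In NC replicate 3 the Ago3 share was 14.2%, within the antagomiR range, and 20.6% and 21.2% in the other NC libraries. The sum of the 4 genes was 22.3, 20.6 and 20.9 FPKM in NC, and for the antagomiR 22.1, 25.0 and 22.4 FPKM, so the groups overlapped in the total.

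**Figure D2:**
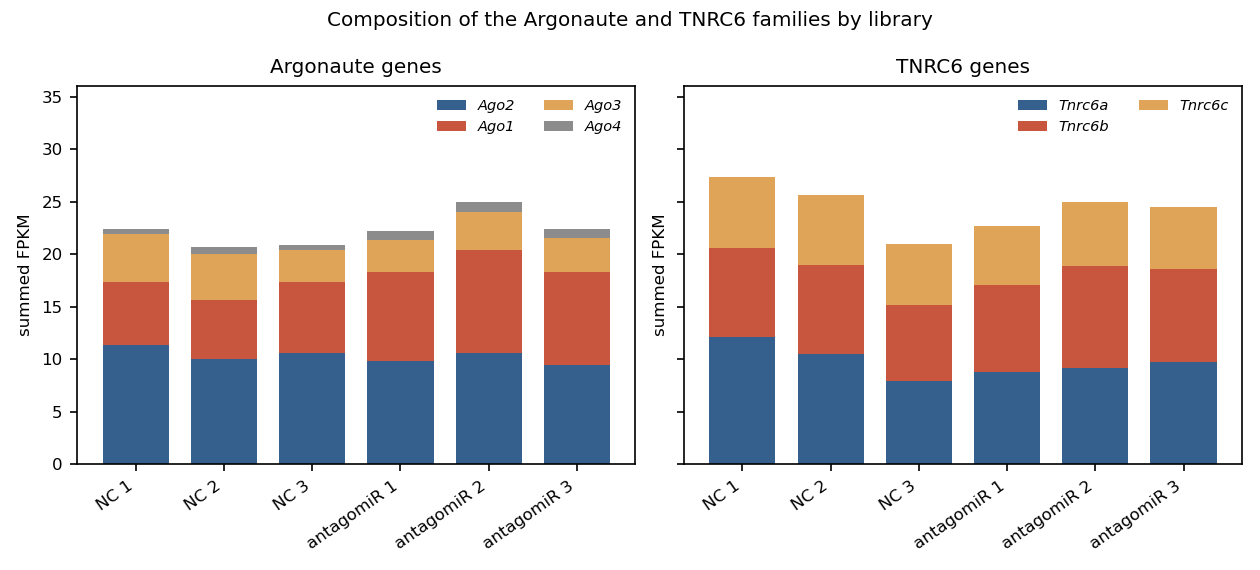
Stacked FPKM (vertical axes, from 0) of the 4 Argonaute genes (left) and the 3 TNRC6 genes (right) in each of the 6 libraries. The Ago1 block is larger in the antagomiR libraries, 38.0% to 39.5% of the Argonaute sum against 26.9% to 32.4% in NC, and the TNRC6 sum is lowest in NC replicate 3.

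None of the 3 TNRC6 genes, whose proteins link Argonautes to the deadenylases, was called. Tnrc6a (ENSRNOG00000024737, chromosome 1 from 177646030 to 177715660) was at 12.1, 10.5 and 7.90 FPKM in NC and at 8.76, 9.15 and 9.74 FPKM with the antagomiR. Its SD in NC, 2.14 FPKM, was the largest of the 10 genes, and NC replicate 3 was below all antagomiR libraries. The log2 fold change of -0.11 had a 95% interval from -0.44 to 0.21 (limma adjusted p = 0.598). Leaving out NC replicate 3 made it -0.27, called down (limma adjusted p = 0.0320).

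Tnrc6b (ENSRNOG00000024907, chromosome 7 from 112252359 to 112461790) was at 8.45, 8.42 and 7.25 FPKM in NC and at 8.33, 9.68 and 8.82 FPKM with the antagomiR. One antagomiR library, replicate 1, lay within the NC range. Its log2 fold change was 0.14 with a 95% interval from -0.06 to 0.34 (limma adjusted p = 0.268). Tnrc6c (ENSRNOG00000022395, chromosome 10 from 102868828 to 102978194) was at 6.80, 6.72 and 5.85 FPKM in NC and at 5.57, 6.11 and 5.92 FPKM with the antagomiR. There the groups overlapped only through NC replicate 3, and the log2 fold change was -0.12 with a 95% interval from -0.30 to 0.07 (limma adjusted p = 0.311). Tnrc6a made up 44.3%, 40.9% and 37.6% of the summed FPKM of the family in NC and 38.7%, 36.7% and 39.8% with the antagomiR (exact two-sided permutation test, p = 0.300, and 0.400 adjusted over the 3 ratios and shares).

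NC replicate 3 was the lowest of the 6 libraries for 6 of the 10 genes, Drosha, Dgcr8, Dicer1, Ago3, Tnrc6a and Tnrc6b, as it was for 25.0% of all tested genes. Among the NC libraries it was lowest for 7, the same 6 and Tnrc6c, as for 39.6% of all tested genes, and highest for Ago1. Without it 3 of the 10 genes were called up and 2 down, where 26.5% and 13.9% of all tested genes were called. The leukocyte markers that also set this library apart were summed at 755.2 FPKM in it, and their part in these values was not tested.

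**Figure D3:**
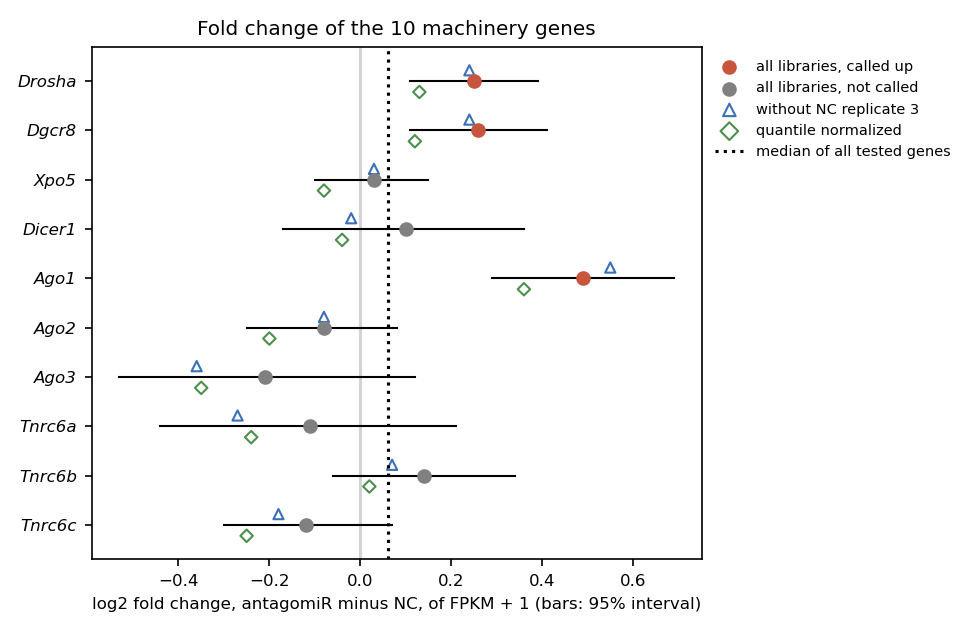
Log2 fold change, antagomiR minus NC, of FPKM + 1 (horizontal axis) for each of the 10 genes, with 95% intervals as bars, the values without NC replicate 3 as triangles, those after quantile normalization as diamonds and the median of all tested genes as a dotted line. Ago1, at 0.49, lies farthest to the right, and the triangles of Ago3 and Tnrc6a lie left of their values from all 6 libraries.

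The wider pathway was covered by 6 lists with 110 other symbols, of which 108 were found and 104 tested. Of these 15 rose and 3 fell, 14.4% risen against the 17.5% of all tested genes, with a median log2 fold change of 0.08 against 0.06. The lists were chosen with earlier results of these data known. They describe these libraries by counts alone, and nothing particular to a list follows from the counts. Only 8 of the 18 called genes kept their call in all 17 alternative fits, and those are named as such where they occur.

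Of 14 tested nuclear cofactors and export factors 1 fell and none rose. The list had a median log2 fold change of 0.04. Adarb1, an adenosine-to-inosine RNA editing enzyme that can edit primary microRNAs, was at 73.3, 72.1 and 59.0 FPKM in NC and at 31.8, 30 and 30.1 FPKM with the antagomiR. The lowest NC library, replicate 3, was still well above all antagomiR libraries, and the log2 fold change was -1.12 (limma adjusted p = 0.000232), kept in all 17 alternatives.

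Dicer partners and Argonaute loading factors had 3 risen and 1 fallen of 15 tested, with a median log2 fold change of 0.15. Adar encodes the interferon-inducible adenosine deaminase that can also bind DICER1, and was at 8.56, 10.5 and 11.8 FPKM in NC and at 18.9, 18.9 and 18.7 FPKM with the antagomiR. The antagomiR libraries were level and above all NC libraries, at a log2 fold change of 0.82 (limma adjusted p = 0.00161), kept in all 17 alternatives. The other called genes of the list encode chaperones and a co-chaperone: Hspa8 rose from 542.4 ± 22.2 to 661.7 ± 16.7 FPKM and Stip1 from 58.8 ± 1.57 to 67.0 ± 1.22 FPKM, while Hspa4 fell from 77.8 ± 3.15 to 65.6 ± 1.05 FPKM (SD, n = 3). Their calls were lost in 3, 8 and 5 alternatives. Among these were the fits without antagomiR replicate 1 or 3 for all 3 genes, those without NC replicate 2 or antagomiR replicate 2 for Stip1 and Hspa4, and that without NC replicate 1 for Stip1 (limma adjusted p from 0.0523 to 0.118). Stip1 also lost its call after quantile normalization and median-ratio scaling (limma adjusted p = 0.0604 and 0.122), and all 3 genes with a replicate block. The other chaperones and co-chaperones of the list, Hsp90aa1, Hsp90ab1, Ptges3, Fkbp4, Dnajb1 and Dnaja2, named after their values were seen, were not called, at log2 fold changes from -0.02 to 0.21.

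Deadenylation genes, which act downstream of the TNRC6 proteins, had 4 risen and none fallen of 20 tested, with a median log2 fold change of 0.13. Cnot6, a catalytic deadenylase subunit, was at 15.3, 14.4 and 14.2 FPKM in NC and at 17.8, 18.9 and 18.7 FPKM with the antagomiR (log2 fold change 0.32, limma adjusted p = 0.00656), kept in all 17 alternatives. Cnot1, the scaffold of the complex, went from 21.3 ± 1.03 to 24.5 ± 0.859 FPKM (limma adjusted p = 0.0464), and Btg1, an antiproliferative factor that binds the complex, from 76.3 ± 3.99 to 92.3 ± 1.31 FPKM (SD, n = 3). The fourth, Btg2, at 0.35, falls outside the rule for named genes and is given to complete the count. Cnot1 and Btg2 lost their calls in 11 alternatives each, including every fit that left out a library other than NC replicate 3, and Btg1 in 1, without antagomiR replicate 3. Over all these alternatives the limma adjusted p ran from 0.0513 to 0.198.

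Decapping, decay and translational repression genes had 2 risen and none fallen of 21 tested, with a median log2 fold change of 0.12. Dcp2, the catalytic decapping enzyme, was at 8.13, 7.2 and 6.40 FPKM in NC and at 9.45, 12.0 and 9.98 FPKM with the antagomiR (log2 fold change 0.48, limma adjusted p = 0.0192). Lsm1, of the ring that binds deadenylated tails, was at 11.2, 10.3 and 10.4 FPKM in NC and at 14.4, 16.6 and 12.4 FPKM with the antagomiR (log2 fold change 0.40, limma adjusted p = 0.0260). In both genes all antagomiR libraries were above all NC libraries. Their calls were lost after quantile normalization and without NC replicate 2 or antagomiR replicate 2, for Dcp2 also without antagomiR replicate 3 and for Lsm1 without antagomiR replicate 1 or after median-ratio scaling (limma adjusted p from 0.0503 to 0.0888).

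Genes of microRNA tailing, turnover and cleavage had 4 risen and none fallen of 14 tested, with a median log2 fold change of 0.10. Zc3h12a, an inflammation-inducible ribonuclease that degrades cytokine mRNAs and can cut microRNA precursors, had the largest change of any gene in the 6 lists. It was at 5.09, 5.56 and 5.45 FPKM in NC and at 41.1, 43.9 and 44.9 FPKM with the antagomiR, 8.06 times the NC mean (log2 fold change 2.80, limma adjusted p = 1.17e-06). Eri1, a 3′ exonuclease of histone mRNA and small RNA, was at 6.33, 5.68 and 4.99 FPKM in NC and at 9.38, 8.52 and 8.96 FPKM with the antagomiR (log2 fold change 0.58, limma adjusted p = 0.00345). Tut1, a terminal uridylyltransferase best known for U6 RNA, was at 5.38, 5.07 and 5.55 FPKM in NC and at 7.25, 7.04 and 7.56 FPKM with the antagomiR (log2 fold change 0.39, limma adjusted p = 0.00524). These 3 kept their calls in all 17 alternatives. The fourth, Pnpt1, at 0.28, falls outside the rule for named genes and lost its call in 8 alternatives, among them those without NC replicate 2 or without any 1 antagomiR library. Over all 8 the limma adjusted p ran from 0.0572 to 0.171. Lin28a, a blocker of let-7 maturation, was listed at 0 in all 6 libraries.

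Regulators that associate with Argonaute had 2 risen and 1 fallen of 20 tested, with a median log2 fold change of 0.03. Mov10, an RNA helicase found with Argonaute and known also as an antiviral factor, was at 2.64, 3.10 and 4.29 FPKM in NC and at 6.82, 6.78 and 7.19 FPKM with the antagomiR (log2 fold change 0.89, limma adjusted p = 0.00353). Zc3hav1, the zinc-finger antiviral protein, was at 17.3, 18.1 and 19.5 FPKM in NC and at 28.2, 31.2 and 28.6 FPKM with the antagomiR (log2 fold change 0.65, limma adjusted p = 0.000632). Both kept their calls in all 17 alternatives. Both, like Adar, were highest among the NC libraries in replicate 3, as were 41.9% of all tested genes. Of the other genes kept in all 17, Tut1 was also highest there, and Zc3h12a, Eri1, Cnot6 and Adarb1 were not. P4ha1, a collagen prolyl hydroxylase that can also hydroxylate AGO2, fell from 400.7 ± 22.8 to 329.9 ± 5.13 FPKM (SD, n = 3; limma adjusted p = 0.0152). Its call was lost without NC replicate 2 or any 1 antagomiR library, after quantile normalization and with a replicate block (limma adjusted p from 0.0611 to 0.0949).

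**Figure D4:**
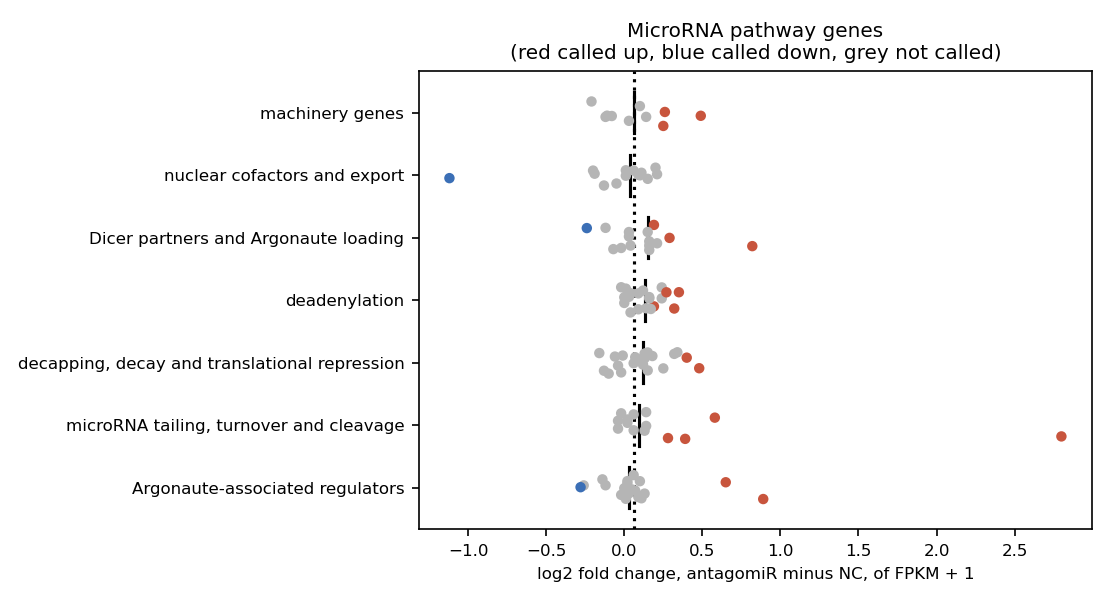
Log2 fold change, antagomiR minus NC, of FPKM + 1 (horizontal axis) for the tested genes of the machinery and of the 6 other lists, 1 point per gene, with the median of each list as a bar and that of all tested genes as a dotted line. Most points lie near 0, and the outlying points are Zc3h12a at 2.80 and Adarb1 at -1.12.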

How the data were processed

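PolyA RNA of 6 libraries was sequenced as paired 150 bp reads, per the labels' protocols. The deposited values are FPKM, which the authors computed per gene. Per the submitters' processing notes, HISAT2, HTSeq, edgeR, cutadapt and FastQC were used with build mRatBN7.2, and versions, annotation release and strand setting are not given in the sources used here, so reads of overlapping antisense genes could be counted together. FPKM were taken to log2(FPKM + 1), which understates changes of low genes. Genes averaging 1 FPKM or more (12024 of 30560) were fitted with limma 3.58.1 (R 4.3.3, empirical Bayes with trend, 2 groups of 3 libraries, two-sided, Benjamini-Hochberg over all tested genes), and the call rule was an adjusted p under 0.05. Fragments per gene and library totals (19472409 to 24622667) were recovered from the steps of the FPKM values, which returned at least 99.66% of the totals. The recovery and the fit were tried on simulated data. For the fit, the simulated counts had the same spread setting for every gene and no library set apart. They therefore do not bear on calls that depend on NC replicate 3. Shares and ratios were compared by exact permutation over libraries. Tables were matched by symbol, and Srrt and Ipo8 by RefSeq synonym, Ddx17 and Nbdy were not matched, and of 2 entries each for Lsm5 and Lsm6 the one with the higher mean was used. Genes are named as follows: all 10 members, in each pathway list up to 3 genes called in each direction with the smallest adjusted p, the 3 profiles nearest to Ago2 and Dicer1, and the 3 highest markers of each cell type. Members, lists, motifs and tests were chosen with earlier results of these data known. The alternatives were other pseudocounts, filters, scalings and variance models, a replicate block, voom on recovered fragments, and leaving out each library.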

Additional observations from a re-analysis of the deposited data

How the results depend on the processing

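Across 17 alternatives, 148 of the machinery genes' values kept their direction and side of the threshold, 13 lost a call, 2 gained one and 6 changed sign. The cause was not tested. The count of 3 machinery genes called up became 1 after median-ratio scaling, quantile normalization or the replicate block, and 1 to 3 when a library was left out, and the count of 0 called down became 0 to 2 when a library was left out. Of the other pathway genes, 15 called up became 9 after quantile normalization and 8 to 21 when a library was left out, and 3 called down became 5 after median-ratio scaling, 1 with the replicate block and 1 to 6 when a library was left out. Over all tested genes, 2109 called up became 1216 to 3185 when a library was left out, and 1107 called down became 1869 after quantile normalization and 667 to 1677 when a library was left out. The log2 fold change changed sign, without a call, for Xpo5 (-0.04 after median-ratio scaling, -0.08 after quantile normalization, -0.00081 without antagomiR replicate 1, and up to 0.05 without another library), Dicer1 (-0.04 after quantile normalization, -0.02 without NC replicate 3, and up to 0.16 without another library) and Tnrc6a (0.02 without NC replicate 1, and down to -0.27 without NC replicate 3). Among the called pathway genes, 244 values kept their side and 62 lost it. Whether replicate numbers pair the libraries is not known. Deviations of equally numbered libraries correlated at -0.16, -0.06 and -0.04, and those of unequally numbered libraries at -0.06 to 0.13. Deviations from means of 3 libraries cannot settle it, so the replicate block lowers counts without a known pairing. With it Drosha had an adjusted p of 0.0691 and Dgcr8 of 0.0799 (limma), and Hspa8, Hspa4, Stip1, Cnot1, Btg2, Pnpt1 and P4ha1 were no longer called (limma adjusted p from 0.0580 to 0.101). The differences in share kept their sign in all alternatives run: without 1 library that of Ago2 ran from -7.59 to -6.41 percentage points, that of Tnrc6a from -4.23 to -0.869, and that of Dgcr8 per Drosha from 0.00350 to 0.0185. Ago4 rests on 32 to 87 fragments per library.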
